A study of Sus scrofa with 2 samples.

Results

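The transcripts of 7 genes of the hypoxia response were followed across the cell classes of pig renal cortex. These were the transcription factor subunits HIF1A and EPAS1, the prolyl hydroxylases EGLN1 and EGLN3, and the target genes PDK1, NDRG1 and ADM. They are 7 of the 31908 genes of the count matrices and were chosen by symbol. The deposited annotation gives the symbol of 6 of them. EGLN1 has an identifier only (ENSSSCG00000010172) and was found through a table that pairs identifiers with symbols.

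Cells adapt to low oxygen mainly through the hypoxia-inducible factors. The alpha subunits HIF1A and EPAS1 (also called HIF-2α) pair with ARNT to activate their targets, and with oxygen present the EGLN enzymes hydroxylate them, which marks them for degradation through VHL. This control acts on the protein, so mRNA levels of the subunits do not report the activity of the pathway, whereas mRNAs of EGLN3, NDRG1, ADM and PDK1 are themselves known to be induced by it in many cells. In the kidney, tubule cells are best known for HIF1A, and endothelial and interstitial cells for EPAS1.

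Single-nucleus RNA sequencing was available for 1 library of unperfused and 1 library of perfused cortex. Kidneys came from slaughterhouse pigs, were flushed with heparinized saline and were kept at 4 °C for about 2 h. Unperfused cortex was taken before, and perfused cortex 120 min into, normothermic perfusion outside the body at 100 mmHg and 37 °C. Both were snap-frozen before nuclei were isolated. The perfusate was Gey's balanced salt solution with no albumin and no red blood cells. The paper describes gassing with carbogen, a mix of oxygen and carbon dioxide, for its mouse perfusions. It refers back to that description for the pig. Breed, age and sex, and whether both pieces came from 1 animal, are not given in the sources used here. The perfused kidney had also been rewarmed and kept ex vivo for longer, so pressure, temperature, perfusate and time cannot be told apart, and neither can the animal. With 1 library per condition no difference between the conditions could be tested. The intervals are 95% intervals, exact unless said otherwise, cover counting error only and take no account of variation between kidneys.

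After filtering, 6389 unperfused and 5421 perfused nuclei remained, with medians of 3755 and 4383 UMIs (unique molecular identifiers, 1 for each captured RNA molecule). The libraries shared 14 cell barcodes, 8 of them among the nuclei kept. Of 21 clusters, 16 were named from marker genes, which gave 12 classes: PODO for podocytes, PT for proximal tubule, LOH for the loop of Henle, DCT for the distal convoluted and CNT for the connecting tubule, PC for principal cells, IC-A and IC-B for both intercalated types, EC for endothelium, STROMA, IMM for immune cells and CYCLING for dividing cells. The first 11, with at least 20 nuclei in each library, are compared throughout. Levels are given as CPM, for which the UMIs of a gene in a class and library are divided by all UMIs of that class and library and multiplied by 1e+06. Reads are not corrected for gene length, so CPM is compared between classes and libraries and never between genes.

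IMM and STROMA also held transcripts of other classes. In IMM the 11 endothelial markers summed to 29.9% of their EC level in its unperfused and 29.5% in its perfused nuclei, and the 16 stromal markers to 40.1% and 52.9% of their STROMA level. Its median UMI counts were 1415.5 and 1526. At a finer clustering, 123 of its 272 unperfused and 467 of its 773 perfused nuclei formed a cluster of low UMI count led by CST3, ATP6 and DCN that took the stromal name. In STROMA the endothelial markers went from 9.97% to 17.2% of their EC level and 10 of 11 of them were higher in the perfused library, while immune markers went from 21.0% to 44.7% of their IMM level. Free RNA, estimated from the proximal tubule and loop markers LRP2, CUBN, SLC12A1 and UMOD, came to 27.5% of the UMIs of unperfused and 15.6% of perfused STROMA, 28.5% and 27.5% of IMM, and 10.8% and 9.90% of EC.

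**Figure D1:**
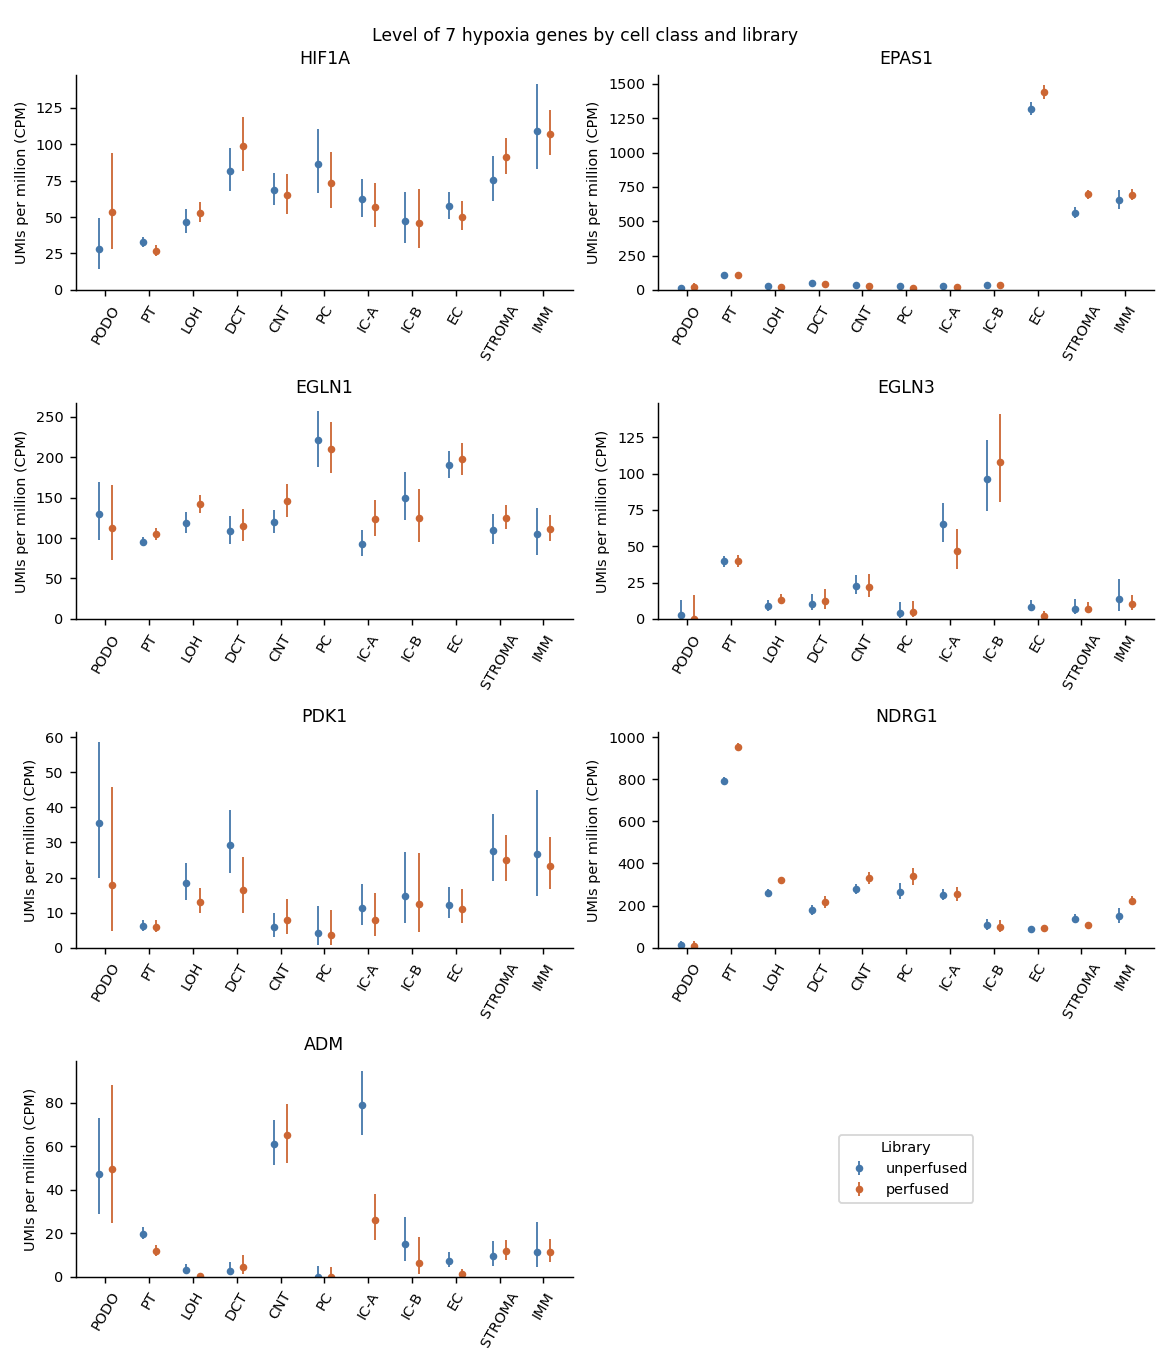
Levels of the 7 genes in 11 cell classes, as CPM (y axis, linear, a scale for each gene) in the unperfused (blue) and perfused (orange) library; bars are exact Poisson 95% intervals. EPAS1 stood highest in EC at 1320 and 1440 CPM and NDRG1 in PT at 794 and 953 CPM, whereas HIF1A and EGLN1 were spread over all classes.

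HIF1A, the subunit present in most tissues, was spread over all classes. Its level in the unperfused and the perfused library was 109 and 107 CPM in IMM, 81.6 and 98.8 CPM in DCT, 75.2 and 91.2 CPM in STROMA, and 86.7 and 73.3 CPM in PC. PT had the lowest mean of both libraries, with 32.6 and 26.9 CPM. The mean of both libraries in IMM was 3.63 times that in PT. Between neighbours in the order of the 11 classes, IMM, DCT, STROMA, PC, CNT, IC-A, EC, LOH, IC-B, PODO and PT, none of 10 steps exceeded the counting intervals. PT nuclei made up the largest class and so still gave 23.7% of all HIF1A UMIs of the unperfused library and 15.1% of those of the perfused library.

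EPAS1, the subunit best known from endothelium, was concentrated in 3 classes. EC had 1320 CPM in the unperfused (3466 UMIs) and 1440 CPM in the perfused library (2872 UMIs). IMM followed with 657 and 692 CPM, and STROMA with 561 and 695 CPM. These levels were far above those of the tubule: PT had 112 and 107 CPM, DCT 52.9 and 44.2 CPM, IC-B 38.6 and 37.3 CPM, CNT 38.3 and 29.6 CPM, LOH 31.4 and 22.7 CPM, IC-A 25.4 and 21.9 CPM, and PC 31.1 and 13.4 CPM. PODO, with 5 UMIs in each library, had 11.8 and 22.4 CPM. EC stood 2.05-fold above IMM, STROMA 5.74-fold above PT and PT 2.25-fold above DCT, and these 3 steps were the only ones of 10 larger than the counting intervals. IMM and STROMA could not be put in an order. The free RNA estimate for EPAS1 was 19.3 and 31.1 CPM in IC-A, above its perfused level. It exceeded the perfused level of PC and the unperfused level of PODO as well, so no order is read among the lowest classes. In DCT the estimate, an upper limit where cells make the marker transcripts themselves, was 116 and 131 CPM. This was above the whole EPAS1 level of DCT in both libraries, and the part of free RNA in it was not tested. The part that the endothelial and stromal markers in IMM have in its EPAS1 level was not tested. Without the cluster of low UMI count, IMM had 568 and 619 CPM. Over 9 alternatives of the processing, the log2 of the EC level over the IMM level lay between 0.86 and 2.85. EC was thus the higher in each, but the size of the step depended on the processing.

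In EC, 85.0% of unperfused and 87.7% of perfused nuclei had at least 1 EPAS1 UMI, against 4.49% and 10.0% in PODO. EC nuclei were the shallower of these, with medians of 1874.5 and 2198 UMIs against 4458 and 7630. After each nucleus was thinned to 1000 UMIs, which left out 53 and 36 EC nuclei and no PODO nucleus, 70.3% and 69.6% of EC nuclei had one, against 3.37% and 3.33% of PODO nuclei. The PODO shares, from 4 of 89 and 3 of 30 nuclei before thinning, are those of the class with the lowest EPAS1 level in these data. A separate background was not measured.

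The balance of both alpha subunits therefore differed between classes. EPAS1 gave 95.8% (95.1 to 96.5) of the HIF1A and EPAS1 UMIs of unperfused EC and 96.6% (95.9 to 97.2) of those of perfused EC. The share was 88.2% and 88.4% in STROMA, 85.8% and 86.6% in IMM, and 77.5% and 79.9% in PT. In the nephron segments after PT it was lower, from 45.0% in perfused IC-B down to 15.5% in perfused PC. Among tubule classes PT was thus the only one of 7 with more EPAS1 than HIF1A UMIs, in both libraries. Gene length and capture differ between both genes, so the share is an index to compare classes and not the ratio of their molecules. LOH had the largest gap between the libraries after PC, 40.3% (33.7 to 47.2) against 29.9% (25.1 to 35.2) in the perfused library, and in all 11 classes the intervals of both libraries overlapped.

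**Figure D2:**
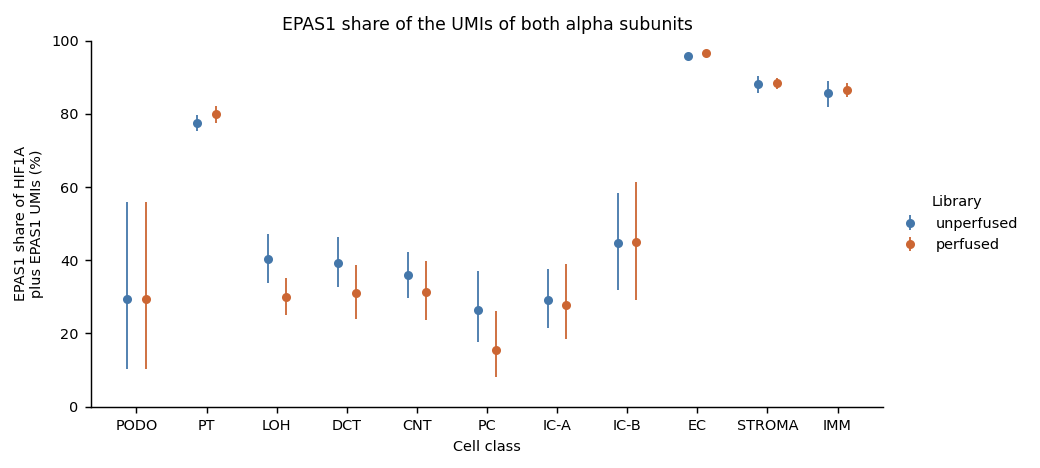
Share of EPAS1 among the UMIs of HIF1A and EPAS1 together (y axis, %) in each class, for the unperfused (blue) and perfused (orange) library; bars are exact binomial 95% intervals. EC, STROMA, IMM and PT lie at or above 77.5% and the other tubule classes at or below 45.0%.

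Within EC, the 2 main clusters differed in EPAS1. The larger one, led by TEK and FLT1, had 1384 CPM (1336 to 1434) in unperfused and 1582 CPM (1522 to 1644) in perfused nuclei. The smaller one, led by DGKB, IL33, PLAT and EHD3, a gene known from glomerular endothelium, had 1032 CPM (929 to 1144) and 817 CPM (723 to 920). It was thus the lower in both libraries, and the 2 clusters moved in opposite directions. The difference between these movements was not tested. A further EC cluster, led by ANKRD55 and GPM6A, held 20 unperfused and 4 perfused nuclei. It had 9 EPAS1 UMIs (236 CPM, 108 to 448) and 0. At the finer clustering, a group of 102 and 124 nuclei led by GJA5, a gene of arterial endothelium, had 1310 and 1358 CPM.

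In STROMA, the EPAS1 counting intervals of the clusters were apart in the perfused library only. In the cluster led by KCND3, CYP7B1 and ZFPM2, EPAS1 was at 547 CPM (502 to 595) in unperfused and 719 CPM (682 to 758) in perfused nuclei. In the cluster led by ANO3 and MYH11, a smooth muscle gene, it was at 610 CPM (522 to 710) and 586 CPM (518 to 662). Only the first of them was higher in the perfused library beyond counting error.

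EGLN1 (PHD2), the main oxygen sensor of the pathway, was found in every class. It was highest in PC, with 221 CPM in unperfused and 210 CPM in perfused nuclei, and in EC, with 191 and 197 CPM. The other 9 classes had means of both libraries between 137 CPM in IC-B and 100.3 CPM in PT. From top to bottom the order spanned 2.15-fold, and none of its 10 steps exceeded the counting intervals. Inside EC the level was uneven: the cluster with EHD3 had 304 CPM (249 to 368) and 370 CPM (308 to 441), against 172 CPM (155 to 190) and 161 CPM (142 to 181) in the cluster led by TEK. Of these 2 endothelial clusters, the one with less EPAS1 was in this way the one with more EGLN1, in both libraries.

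EGLN3 (PHD3), a prolyl hydroxylase that is itself a target of the pathway, was more restricted. IC-B had 96.4 CPM in unperfused and 108 CPM in perfused nuclei, IC-A 65.4 and 46.7 CPM, PT 39.5 and 39.7 CPM, and CNT 22.7 and 21.9 CPM. The remaining 7 classes had means of at most 11.8 CPM, and PODO had 1 UMI in its unperfused and none in its perfused nuclei, where 3 counts, the limit that a count of 0 allows, are 13.4 CPM. Only the step from PT to CNT, 1.78-fold, was larger than the counting intervals. PC, which lies beside the intercalated cells in the collecting duct, had 3 and 4 UMIs, or 4.06 and 4.88 CPM. EGLN1 and EGLN3 thus peaked in different cells of the collecting duct.

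**Figure D3:**
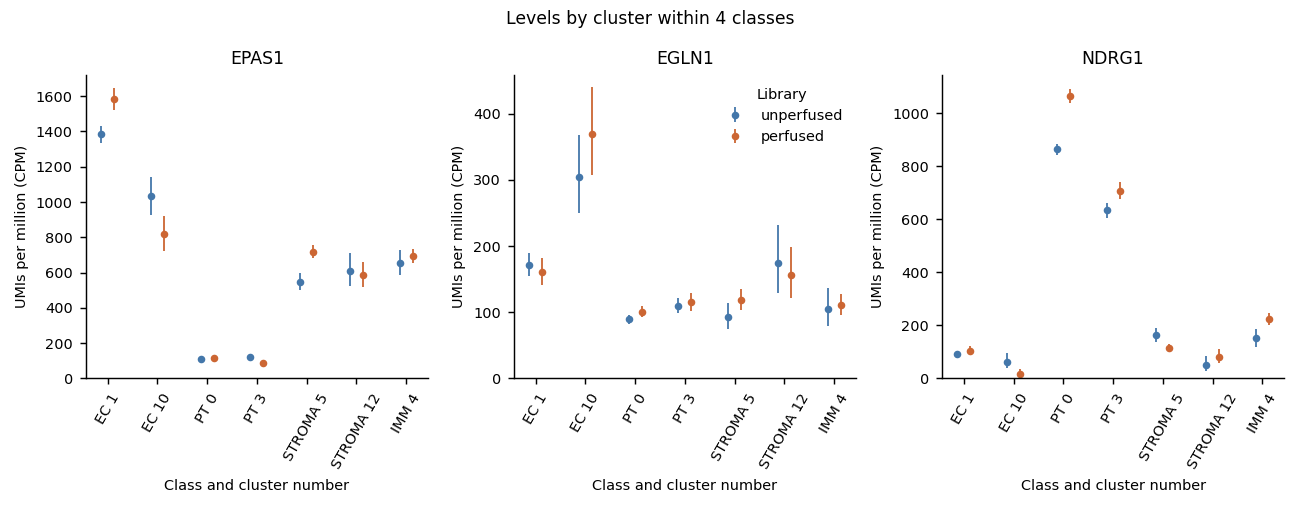
EPAS1, EGLN1 and NDRG1 in the clusters of EC, PT, STROMA and IMM (x axis, class and cluster number; the EC cluster of 24 nuclei is left out), as CPM (y axis, linear) in the unperfused (blue) and perfused (orange) library, with exact Poisson 95% intervals. In EC 10, the cluster with EHD3, EPAS1 lies below and EGLN1 above EC 1 in both libraries.

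NDRG1, a stress-response gene that is widely used as a readout of hypoxia, was foremost a gene of PT. PT held 8091 of its UMIs among unperfused and 7921 among perfused nuclei, 794 and 953 CPM, and 85.9% and 89.2% of PT nuclei had at least 1, against 5.62% and 3.33% in PODO. After thinning to 1000 UMIs the PT shares were 48.7% and 53.4%. The mean of both libraries was 2.87 times that in CNT, the next class, and this step and the one from EC to PODO, 7.79-fold, were the only ones of 10 larger than the counting intervals. CNT, PC, LOH and IC-A followed between 253 and 304 CPM as means of both libraries, and their neighbouring intervals overlapped. EC had 87.6 and 92.7 CPM and PODO 14.2 and 8.96 CPM, from 6 and 2 UMIs. In the classes outside the tubule much of the level was near that of free RNA, whose estimate was 46.7 and 47.7 CPM in EC, 119 and 75.0 CPM of the 139 and 108 CPM in STROMA, and 123 and 132 CPM of the 151 and 223 CPM in IMM. No order is therefore read among EC, STROMA and IMM.

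Within PT, the cluster led by SLC7A8, STRA6 and the lactate transporter SLC5A12 had 865 CPM (843 to 886) in unperfused and 1065 CPM (1039 to 1093) in perfused nuclei. The cluster led by ADCY8, PGC and SLC22A2 had 634 CPM (606 to 662) and 708 CPM (677 to 741). At the finer clustering the range was wider, from 533 and 663 CPM in the cluster led by ADCY8 and CDH8 to 1007 and 1219 CPM in the one led by C16orf89. The finer clustering gave 5 PT clusters, and in each of them the perfused library was the higher.

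ADM, which encodes the vasodilator peptide adrenomedullin, was low and restricted. In the unperfused library IC-A had 78.8 CPM (118 UMIs), CNT 61.1 CPM (137 UMIs) and PODO 47.3 CPM (20 UMIs). In the perfused library these classes had 25.8 CPM (26 UMIs), 64.9 CPM (92 UMIs) and 49.3 CPM (11 UMIs). PT followed with 19.7 and 11.8 CPM. PC had no ADM UMI in 176 unperfused and 151 perfused nuclei, where 3 counts, the limit that a count of 0 allows, are 4.06 and 3.66 CPM, although it neighbours CNT and IC-A. DCT had 4 and 5 UMIs and LOH 8 and 1. The step from PODO to PT, 3.06-fold, was the only one of 10 larger than the counting intervals.

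PDK1, a kinase that inhibits pyruvate dehydrogenase, was the sparsest member over both libraries together, with 329 and 306 UMIs over all nuclei of a library. STROMA had 27.4 and 25.0 CPM, IMM 26.8 and 23.2 CPM, DCT 29.4 and 16.5 CPM, and PODO 35.5 and 17.9 CPM. PT, the class with most NDRG1, had 6.18 and 6.01 CPM of PDK1. No step in the order of classes was larger than the counting intervals.

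The targets did not share one pattern. Over the 11 classes and both libraries (22 points, which share their libraries and depth), Pearson's r of log2(CPM + 5) was −0.58 between PDK1 and NDRG1, 0.45 between EGLN3 and NDRG1 and −0.22 between NDRG1 and ADM. Neither alpha subunit followed a target closely: the correlations of HIF1A and EPAS1 with EGLN3, PDK1, NDRG1 and ADM lay between −0.26 and 0.29.

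The genes most like each member were sought among the 7187 with a symbol and at least 1000 UMIs, by the same correlation over the 22 points. For EPAS1 they included NRP1 (r = 0.96) and ACSL5 (0.96), and they were, for NDRG1, KIF12 (0.91), DENND1A (0.90) and ABLIM1 (0.89), and for EGLN1 USP54 (0.91), FERMT1 (0.86) and RARG (0.86). EGLN3 was most like DMXL1 (0.89), ADIPOR2 (0.88) and CLPB (0.88), and HIF1A most like HMGN3 (0.85), SEPTIN7 (0.82) and OTULINL (0.81). For PDK1 the nearest were CHD4 (0.84), PPM1D (0.81) and COX17 (0.80), and for ADM they were more distant, IMMP2L (0.68), SORCS2 (0.62) and CA10 (0.60).

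The perfused library was then set against the unperfused library class by class. Of 84 pairs of member and class, 54 had at least 50 UMIs over both libraries. In 12 of them the perfused level was higher and in 6 lower with a counting interval of the log2 ratio that left out 0, and 1 went past 2-fold, ADM in IC-A. Of all pairs of gene and class with 50 UMIs, 11.7% had such an interval on the higher and 15.6% on the lower side. By class, the share of genes on the higher side was 14.8% in PT, 10.3% in LOH, 10.1% in DCT, 11.8% in CNT, 13.7% in PC, 10.9% in IC-A, 9.77% in IC-B, 9.92% in EC, 15.4% in STROMA, 8.98% in IMM and 9.3% in PODO. On the lower side it was 25.1% in PT, 16.8% in LOH, 9.94% in DCT, 13.8% in CNT, 16% in PC, 13.5% in IC-A, 7.74% in IC-B, 18% in EC, 16.1% in STROMA, 10.9% in IMM and 9.08% in PODO. These intervals are narrower for genes with more UMIs, and the levels of other genes were not made equal to those of the members. In IC-A 4.43% of all genes with 50 UMIs went past 2-fold in either direction. The same background was 6.85% in PT, 3.8% in LOH, 3% in DCT, 4.43% in CNT, 7.35% in PC, 3.14% in IC-B, 3.38% in EC, 8.74% in STROMA, 4.28% in IMM and 4.29% in PODO, where no member did. The median log2 ratio of all genes lay between −0.10 in EC and 0.01 in IC-B. Factors that centre the bulk of genes (TMM) raised every ratio of a class by 0.03 in PODO to 0.21 in IMM. With them 16 pairs were higher, the 12 above among them, beside 18.6% of all pairs. Of the 6 lower ones 2 kept an interval without 0, ADM in PT and in IC-A, beside 10.4% of all pairs, and the same 2 kept it with DESeq2 size factors. The lower values of HIF1A in PT, EPAS1 in LOH, NDRG1 in STROMA and PDK1 in DCT had intervals with 0 under both scalings.

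**Figure D4:**
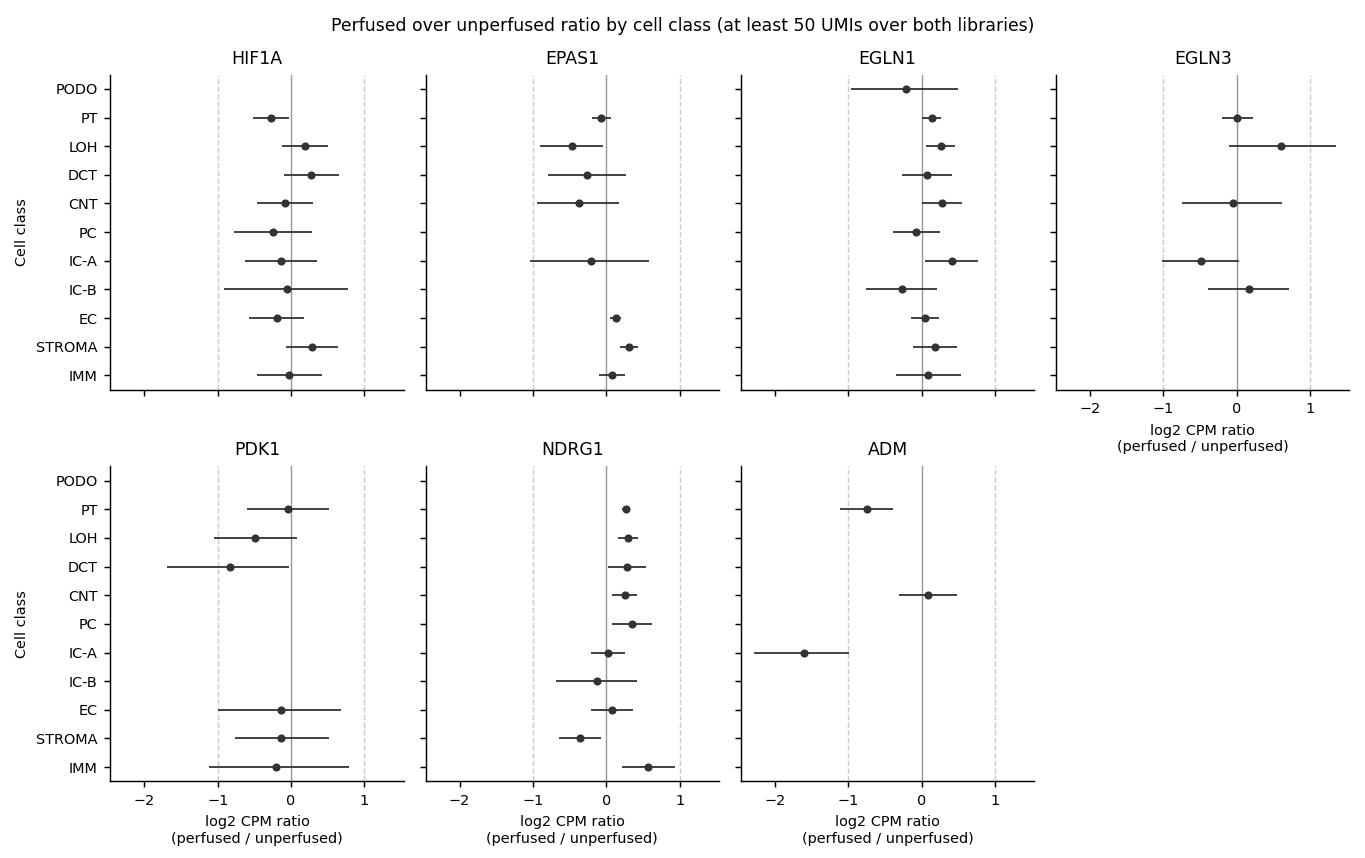
Log2 ratio of CPM, perfused over unperfused (x axis), by class (y axis) for each member with at least 50 UMIs over both libraries, with exact 95% counting intervals; dashed lines mark 2-fold. ADM in IC-A, at −1.61, is the one point past 2-fold, and the NDRG1 points of PT, LOH, DCT, CNT and PC lie between 0.25 and 0.35. CYCLING is not drawn.

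With the 11 classes weighted equally, so that their shares of the nuclei do not enter, the log2 ratio, with an approximate interval from Poisson error, was 0.05 (−0.10 to 0.20) for HIF1A, 0.12 (0.06 to 0.18) for EPAS1, 0.07 (−0.04 to 0.17) for EGLN1 and −0.07 (−0.32 to 0.18) for EGLN3. Among the targets it was 0.22 (0.16 to 0.28) for NDRG1, −0.41 (−0.75 to −0.07) for PDK1 and −0.45 (−0.78 to −0.13) for ADM. These are ratios of mean CPM, so classes with a high level weigh most. For ADM, IC-A had 78.8 and 25.8 CPM, whereas CNT had 61.1 and 64.9 CPM. For PDK1, PODO had 35.5 and 17.9 CPM, from 15 and 4 UMIs, and DCT 29.4 and 16.5 CPM, whereas CNT had 5.80 and 7.76 CPM. The members thus differed by at most 1.37-fold between the libraries on this scale, and the targets went in different directions.

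On the CPM scale the alpha subunits differed little. HIF1A was lower in perfused PT (−0.27, −0.52 to −0.02), where 25.1% of all genes were lower by this rule, but not with TMM factors (−0.18, −0.43 to 0.07). Its intervals in the other 9 classes with enough UMIs included 0, but this depended on the scaling. STROMA was higher with TMM factors (0.41, 0.06 to 0.77) and with DESeq2 size factors (0.40, 0.05 to 0.76). LOH was higher with DESeq2 size factors only (0.32, 0.0079 to 0.65). Of all pairs of gene and class, 18.6% were higher with TMM and 19.2% with DESeq2 factors. EPAS1 was higher in EC (0.13, 0.05 to 0.20) and in STROMA (0.31, 0.18 to 0.44) and lower in LOH (−0.47, −0.90 to −0.04), where TMM factors gave −0.34 (−0.77 to 0.09). By the same rule 9.92% of all genes were higher in EC, 15.4% were higher in STROMA and 16.8% were lower in LOH. In IMM, EPAS1 was higher with TMM factors (0.28, 0.11 to 0.46) and DESeq2 size factors (0.25, 0.08 to 0.43) but not by CPM. The value in EC was −0.04 when nuclei were dropped for holding any UMI of a foreign lineage marker, and the one in STROMA was −0.06 at a resolution of 0.3. At that resolution STROMA held 106 and 133 nuclei, as many as the cluster led by ANO3 and MYH11 alone. The endothelial and immune markers in STROMA moved with its EPAS1, as given above, and their part was not tested. In LOH the estimate rested on 87 and 100 UMIs, and free RNA was estimated at 12.3 and 11.6 CPM of the 31.4 and 22.7 CPM.

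EGLN1 was higher in perfused IC-A (0.41, 0.05 to 0.77), CNT (0.28, 0.01 to 0.55), LOH (0.26, 0.06 to 0.46) and PT (0.14, 0.0029 to 0.27), all tubule classes. By the same rule 10.9% of all genes were higher in IC-A, 11.8% in CNT, 10.3% in LOH and 14.8% in PT. The EGLN1 intervals in the other 7 classes included 0, but this depended on the scaling. With TMM factors STROMA was higher too (0.31, 0.02 to 0.61). With DESeq2 size factors STROMA (0.31, 0.01 to 0.61) and EC (0.20, 0.0053 to 0.39) were. EGLN3 had enough UMIs in 5 classes, and all of its CPM intervals included 0, with ratios from −0.49 in IC-A to 0.60 in LOH. In LOH it was higher with TMM factors (0.73, 0.02 to 1.48) and with DESeq2 size factors (0.74, 0.03 to 1.49).

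NDRG1 was higher in the perfused library in 6 of the 10 classes with enough UMIs, beside 8.98% to 15.4% of all genes in these classes. In the tubule the log2 ratio was 0.26 (0.22 to 0.31) in PT, 0.30 (0.16 to 0.43) in LOH, 0.28 (0.03 to 0.54) in DCT, 0.25 (0.07 to 0.42) in CNT and 0.35 (0.08 to 0.62) in PC, or 1.19-fold to 1.27-fold. Those of IC-A (0.02), IC-B (−0.12) and EC (0.08) had intervals with 0. In DCT the free RNA estimate, an upper limit where cells make the marker transcripts themselves, was 215 and 241 CPM, above the NDRG1 level of 178 and 217 CPM, and its part was not tested. The DCT value turned to −0.32 when nuclei were thinned to 1000 UMIs, and the other 4 tubule classes with a higher level kept their direction under every alternative. IMM had 0.56 (0.21 to 0.93), and 1.14 (0.62 to 1.70) without the cluster of low UMI count, which left 149 and 306 nuclei. STROMA was the one class with a lower level (−0.36, −0.64 to −0.08). TMM factors gave −0.23 (−0.51 to 0.05), and the value became 0.51 after the free RNA was subtracted, 0.20 with doublets kept and 0.66 at a resolution of 0.3. At that resolution STROMA held 106 and 133 nuclei, as many as the cluster led by ANO3 and MYH11 alone. In that cluster NDRG1 was at 50.9 CPM (27.8 to 85.4) in unperfused and 80.6 CPM (56.4 to 112) in perfused nuclei. The STROMA cluster led by KCND3 had 163 CPM (139 to 190) and 114 CPM (99.6 to 130).

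ADM was lower in perfused IC-A, by 3.05-fold (log2 ratio −1.61, −2.28 to −0.99), and in perfused PT, by 1.67-fold (−0.74, −1.11 to −0.39). In CNT it was 0.09 (−0.31 to 0.48). Of the IC-A nuclei, 24.7% of the unperfused (74 of 299) and 13.4% of the perfused (18 of 134) had an ADM UMI, although the perfused nuclei were deeper, with a median of 6639 against 4801 UMIs. PC nuclei, with medians of 3757.5 and 5383 UMIs, had none. After thinning to 1000 UMIs the shares were 7.38% (4.68 to 11.0) and 2.99% (0.82 to 7.47). No nucleus held more than 6 of these UMIs, and the log2 ratio was −1.70 without the richest nucleus of each library. Mitochondrial transcripts made up 0.178% of unperfused and 0.070% of perfused IC-A UMIs and ribosomal protein transcripts 0.521% and 0.347%. These moved with the ADM level, and their part in it was not tested; with both kinds left out of the total the ratio was −1.61.

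In PT, ADM was lower in both clusters, with 22.5 CPM against 15.8 CPM in the one led by SLC7A8 and 13.4 CPM against 3.05 CPM (42 and 8 UMIs) in the one led by ADCY8. EC had 19 UMIs of ADM among unperfused and 2 among perfused nuclei, fewer than the minimum of 50.

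PDK1 had enough UMIs in 6 classes, and all 6 ratios were below 0. Only that of DCT (−0.83, −1.69 to −0.03) had an interval without 0, from 45 and 19 UMIs, and with TMM factors it was −0.78 (−1.64 to 0.02). In DCT 9.94% of all genes were lower by this rule. The median ratio of all genes was itself below 0 in each of the 6 classes. With TMM factors PDK1 was at 0.05 in PT, −0.015 in EC, −0.0039 in STROMA and −0.00047 in IMM.

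The wider pathway was read from 3 lists without the members: 10 regulators, 17 genes of glycolysis and 29 other targets, of which 8, 16 and 29 are in the files. In PT, 44 of these genes had at least 50 UMIs, and none went past 2-fold. The same held for 40 genes in LOH and 36 in EC. Medians of the log2 ratio over all lists were −0.05 in PT, −0.06 in LOH and −0.15 in EC, against −0.06, −0.06 and −0.10 over all genes of these classes. The regulators lay lowest, with medians of −0.25, −0.38 and −0.31, and 7 of 8, 4 of 6 and 5 of 5 of them were below 0. The share of all genes below 0 was not counted, and their median was itself below 0 in these classes. TMM factors raise every ratio by 0.09 in PT, 0.13 in LOH and 0.13 in EC. The counts are therefore not read as a result about the regulators.

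STROMA and IMM showed more spread. In STROMA the 12 measured glycolysis genes had a median of 0.55 and the 22 other targets one of −0.30, against −0.01 over all genes. The enzymes TPI1 (1.82) and ENO1 (1.01, 0.60 to 1.44) were higher in the perfused library by over 2-fold. The ARNT paralogue ARNT2 (−1.90, −2.37 to −1.44), the carbonic anhydrase CA12 (−1.72, −2.02 to −1.43) and VEGFA (−1.01, −1.79 to −0.23), the endothelial growth factor, were lower by over 2-fold. Free RNA was estimated at 27.5% of unperfused and 15.6% of perfused STROMA UMIs. ARNT2 stood far higher in DCT and LOH, and VEGFA in PODO and PT, as given below. The part of free RNA in these lower STROMA values was not tested. In IMM the 13 glycolysis genes had a median of 0.68 against −0.04 over all genes, and PFKFB3 (1.06, 0.57 to 1.58), which makes the activator of glycolysis, and the collagen-modifying enzyme PLOD2 (1.08, 0.42 to 1.81) went past 2-fold. In total 5 of 42 list genes did so in STROMA and 2 of 39 in IMM, beside backgrounds of 8.74% and 4.28%.

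Mitochondrial transcripts went from 0.216% to 0.771% of UMIs in STROMA and from 0.848% to 2.08% in IMM, and ribosomal protein transcripts from 0.776% to 1.50% and from 2.34% to 3.55%. These shares moved with the glycolysis genes, and their part was not tested. Without the cluster of low UMI count, the same 13 glycolysis genes of IMM had a median of 0.22, and 5 of them still had 50 UMIs. ENO1 in IMM then stood at 0.32 (−0.35 to 1.03) and PFKFB3 at 1.57 (0.99 to 2.19), both in the 149 and 306 nuclei left, and PLOD2 at 1.05 (−0.06 to 2.36).

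In the other classes, PFKFB3 was higher by over 2-fold in CNT (1.29, 0.71 to 1.89) and PC (1.44, 0.72 to 2.20). Lower by over 2-fold were CA12 (−1.76), the stress gene DDIT4 (−1.32) and GAPDH (−1.70) in PC, WSB1 (−1.05) in PODO, PLOD2 (−1.01) in DCT and VEGFA (−1.10) in IC-B. In PC these were 4 of 23 list genes with 50 UMIs, beside the background of 7.35%. Mitochondrial transcripts went from 0.339% to 0.095% of PC UMIs and ribosomal protein transcripts from 0.512% to 0.267%. These shares moved with CA12, DDIT4 and GAPDH, and their part was not tested.

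**Figure D5:**
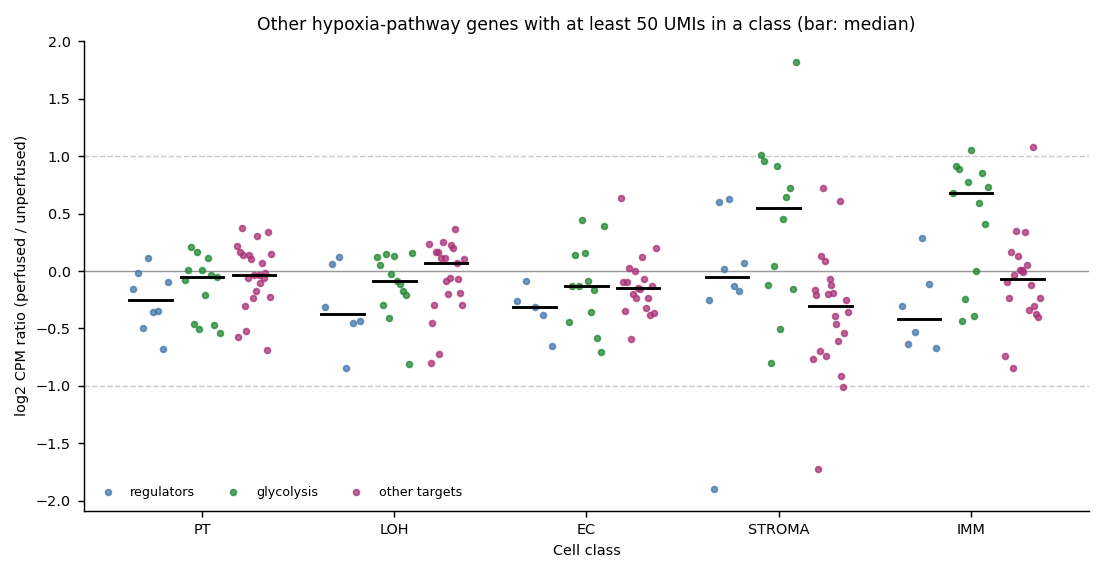
Log2 ratio of CPM, perfused over unperfused (y axis), of each gene of the 3 hypoxia lists with at least 50 UMIs in a class (points, coloured by list) in PT, LOH, EC, STROMA and IMM (x axis); black bars are medians and dashed lines mark 2-fold. The glycolysis medians of 0.55 in STROMA and 0.68 in IMM lie above those of the other lists, and in PT, LOH and EC no point reaches 2-fold.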

How the data were processed

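The authors aligned single-nucleus reads with Cell Ranger 5.0.1 to a reference made from Ensembl release 103 of the pig genome, with introns counted; the deposited values are whole-number UMI counts by gene and barcode, 1 library per condition. Symbols were completed from a table of identifiers for 822 genes. The filters of the study were applied: 500 to 6000 genes and no more than 7% of UMIs from mitochondrial genes. Scrublet (scanpy 1.11.5) called 641 unperfused and 489 perfused doublets, which were removed. Total counts before filtering were 34415254 and 35525592. SoupX, which the study used, was not run. Whether the deposited counts precede that step is not given in the sources used here.

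Libraries were integrated in Seurat 5.3.0 (R 4.3.3) with 2000 variable genes, without the members and the hypoxia lists, and 30 anchor dimensions, and clustered on 15 principal components at a resolution of 0.5. Clusters were named from 14 lists of 118 markers, 109 of them found. A marker counted when its log2 fold over all other nuclei (offset 5 CPM) exceeded 1 and 10% or more of the cluster expressed it. A name needed 3 counted markers and no more markers of another list than its own among the top 10 genes. CNT rested on 3 markers. The 5 clusters that failed stayed unnamed, among them those nearest to the lists for injured proximal tubule and parietal epithelium.

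UMIs were summed by class and library. CPM has exact Poisson intervals, log2 ratios exact conditional binomial ones, and equally weighted classes (at least 20 nuclei per library) intervals from Poisson error; the script was tested on simulated data. A count of 0 was set to 3 counts. Free RNA in a class is the level of LRP2, CUBN, SLC12A1 and UMOD there against the whole library (in PT and LOH, the markers of the other segment only), an upper limit where cells make these themselves, as DCT and the unnamed clusters may. Genes named are the members, list genes past 2-fold with 50 UMIs, and the 3 genes most like each member, of which 1 is not reported here. The members and lists were chosen with earlier results of these data known. Alternatives were clustering, filters, scaling with edgeR 4.0.16 or DESeq2 1.42.0, free RNA, thinning and gene minimums. VHL, EGLN2 and SLC2A1 were not found by symbol. Genome positions and sequences were not used here, and HIF1A, EPAS1, PDK1 and NDRG1 overlap other gene entries in the RefSeq annotation of the pig, so that some of their UMIs may be shared.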

Additional observations from a re-analysis of the deposited data

Results flagged for a closer look

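For a pair of members the ratio of perfused over unperfused went in opposite directions in different classes, with counting intervals that left out 0 on both sides. EPAS1 was higher in perfused STROMA (log2 ratio 0.31, 0.18 to 0.44) and lower in perfused LOH (−0.47, −0.90 to −0.04). NDRG1 was higher in perfused IMM (0.56, 0.21 to 0.93) and lower in perfused STROMA (−0.36, −0.64 to −0.08). With 1 library per condition neither difference between classes was tested. With TMM factors the intervals of both lower values included 0, with −0.34 (−0.77 to 0.09) for EPAS1 in LOH and −0.23 (−0.51 to 0.05) for NDRG1 in STROMA, and so they did with DESeq2 size factors. The NDRG1 value in STROMA changed sign under 3 alternatives, and EPAS1 in STROMA under 1, as given among the results by processing.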

How the results depend on the processing

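No paired analysis was possible because each condition had 1 library, so no library could be left out either. Of 112 alternative values of the 7 equally weighted ratios, 93 moved by less than the counting error, 18 moved by more and 1 changed the sign of a ratio whose counting interval left out 0; of 711 values of ratios within classes, 676, 29 and 6. Of 68 values of the level of a member's top class over its next class, 66 moved by less than the counting error and 2 by more. Ratios whose interval included 0 changed sign in 8 of 48 values with equal weights and in 48 of 458 within classes. The cause of these changes was not tested. Where the interval left out 0, changed signs were ADM with equal weights, 0.034 in nuclei free of foreign lineage markers, NDRG1 in STROMA, 0.20 with doublets kept, 0.66 at resolution 0.3 and 0.51 with free RNA subtracted, EPAS1 in STROMA, −0.058 at resolution 0.3, EPAS1 in EC, −0.043 without nuclei holding another lineage's marker, and NDRG1 in DCT, −0.32 after thinning. ADM in IC-A lay between −1.70 and −0.48. With equal weights, TMM gave EPAS1 0.26, EGLN1 0.17 and NDRG1 0.33, and list medians of 0.063 in LOH, −0.020 in EC, −0.032 in STROMA and 0.20 in IMM. DESeq2 factors gave 0.26, 0.18 and 0.33, and list medians of 0.053 in PT, 0.073 in LOH, 0.000726 in EC, −0.038 in STROMA and 0.17 in IMM. The mean over nuclei with a pseudocount of 1 gave PDK1 −0.042, NDRG1 0.15 and ADM −0.060, and list medians of −0.042 in EC and −0.036 in STROMA. Without nuclei holding another lineage's marker, EGLN1 was −0.11, EGLN3 0.54, PDK1 −0.98 and NDRG1 0.41, and list medians were 0.051 in LOH, 0.12 in EC and −0.99 in STROMA; this left 0 DCT nuclei and 42 and 44 of STROMA. Thinning gave EGLN1 −0.11 and an EC list median of −0.27, and doublets kept an EC median of −0.26. Resolution 0.3 gave EPAS1 0.027 and a STROMA median of −0.027. It left 106 and 133 nuclei in STROMA, as many as the cluster led by ANO3 and MYH11 alone. NDRG1 was 0.30 without integration and, with ADM at −0.91, 0.16 over all nuclei without classes. The IMM median was 0.093 with hypoxia genes among the variable genes and 0.11 with free RNA subtracted. At resolution 0.3 and without integration no cluster was named IMM. Leaving the cluster of low UMI count out and adding the members to the lists were chosen after seeing the data.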

Other observations

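Other genes of the pathway, named here after their values were seen, had their own class patterns. The inhibitory subunit HIF3A stood at 374 CPM in unperfused and 349 CPM in perfused PODO, against 38.4 and 40.4 CPM in STROMA and 3.34 and 3.13 CPM in PT. ARNT2 was at 1273 and 1728 CPM in DCT and 1019 and 1061 CPM in LOH, against 6.08 and 6.01 CPM in PT. VEGFA was at 894 CPM in unperfused and 475 CPM in perfused PODO (log2 ratio −0.91, −1.24 to −0.60), and at 119 and 73.9 CPM in PT.

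Several of them went one way in every class where they had 50 UMIs. VEGFA was lower in perfused nuclei of 9 of 9 classes, with intervals below 0 in 6, DDIT4 of 9 of 9 with intervals below 0 in 7, and ARNT, the partner of both alpha subunits, of 11 of 11 with intervals below 0 in 6. The smallest of these differences were −0.12 for VEGFA in PC, −0.04 for DDIT4 in IMM and −0.12 for ARNT, and TMM factors, which raise ratios by 0.16 in PC and 0.21 in IMM, would turn the first 2 of them. PFKFB3 was higher in 8 of 8 classes, with intervals above 0 in 4 and a lowest ratio of 0.0079. WSB1 was lower in 10 of 11 classes, with intervals below 0 in 8, and higher in the remaining 1. Of all genes measured in at least 9 classes, 6.17% were lower in every one, of those measured in 11, 5.52%, and of those measured in at least 8, 1.52% were higher in every one. The classes share the same 2 libraries and are not independent.

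Among the clusters without a name, the one led by DPP10, SLIT3 and CDH18 had EGLN1 at 282 CPM in its unperfused and 255 CPM in its perfused nuclei. The cluster led by POU2F3 and SLC5A8 had NDRG1 at 407 and 683 CPM, and the one led by AGMO and RIMS2 at 492 and 576 CPM.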
